A study of Rattus norvegicus with 6 samples.

Results

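The microRNAs described here are the 7 heart and skeletal muscle microRNAs of the rat array, out of 758 rat microRNAs that it carries. They were chosen by name, as the arms usually measured in blood as signs of muscle: rno-miR-1-3p, rno-miR-206-3p, rno-miR-133a-3p, rno-miR-133b-3p, rno-miR-208a-3p, rno-miR-208b-3p and rno-miR-499-5p. All 7 names were found in the array files. Blood of 3 untreated male Sprague-Dawley rats aged 10 weeks was drawn from the abdominal aorta for arterial plasma and from the postcava (the caudal vena cava) for venous plasma, and each of the 6 samples was hybridized to 1 single-colour Agilent array. Each rat gave 1 arterial and 1 venous sample. Samples with the same replicate number in their labels were taken as the same animal and paired, and that number is used here as the rat number. Plasma was spun at high speed and filtered before RNA was extracted, so that what was measured is RNA outside cells and not muscle tissue itself. The question put to these microRNAs is whether they were present in plasma and whether arterial and venous plasma of a rat differed in them.

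MicroRNAs are short RNAs that lower the output of messenger RNAs whose sequence pairs with their seed, the bases near the 5′ end. Those of muscle are often called myomiRs. miR-1 and miR-133a are made from shared transcripts in heart and skeletal muscle, where miR-1 is known to promote differentiation and miR-133 to act on proliferation through serum response factor. miR-206 and miR-133b come from a shared locus that is active in skeletal muscle. miR-208a, miR-208b and miR-499 lie in introns of myosin heavy chain genes and act on the balance of fast and slow myosins. In blood these microRNAs are known as markers of injured muscle, and in health their levels are low.

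The mature sequences are shown because some members differ by few bases, which matters for reading their values side by side. They were taken from RefSeq (GRCr8), which held all 7, and are written 5′ to 3′ with the seed (bases 2 to 8) in capitals.
rno-miR-1-3p: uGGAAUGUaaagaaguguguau
rno-miR-206-3p: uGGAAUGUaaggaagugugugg
rno-miR-133a-3p: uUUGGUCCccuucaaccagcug
rno-miR-133b-3p: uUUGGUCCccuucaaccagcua
rno-miR-208a-3p: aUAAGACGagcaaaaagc
rno-miR-208b-3p: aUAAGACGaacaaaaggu
rno-miR-499-5p: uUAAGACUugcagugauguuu

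Among these lines 3 pairs share a seed, and rno-miR-499-5p has its own. rno-miR-1-3p and rno-miR-206-3p have the same seed and differ at 3 of 22 positions, A11G, A21G and U22G, counted from 1 at the 5′ end with the base of the first-named microRNA first. rno-miR-133a-3p and rno-miR-133b-3p differ at 1 of 22 positions, G22A, which is their last base. rno-miR-208a-3p and rno-miR-208b-3p differ at 3 of 18 positions, G10A, A16G and C18U, none of them in the seed. rno-miR-499-5p differs from rno-miR-208a-3p at 8 of 18 positions compared, 1 of which lies in the seed. In GRCr8 the hairpins of rno-miR-208a-3p, rno-miR-208b-3p and rno-miR-499-5p lie within Myh6, Myh7 and Myh7b, which encode myosin heavy chains. Genome coordinates are not given, because the array files name no assembly.

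The level of a microRNA is given first as its processed intensity, the brightness of its spots after background subtraction, averaged over its spots and then over its probes. This value is not normalized between arrays and falls around 0, or below it, where nothing binds. Each array also carries negative control spots, and 95% of them stayed under a processed intensity of 2.87 to 3.85, depending on the array. A microRNA was called detected by Agilent's Feature Extraction software. Between 137 and 175 of the 758 microRNAs (18.1 to 23.1%) were detected on an array, and the median processed intensity of the 126 detected on all 6 arrays was 17.2 to 52.9. No rat microRNA spot was saturated, and only 207 microRNAs were above an intensity of 1 on every array after normalization. Rats 1 and 2 were on 1 slide and rat 3 on another, so that rat 3 and its slide cannot be told apart.

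Of the 7 muscle microRNAs, rno-miR-133b-3p was detected on all 6 arrays, rno-miR-206-3p was detected on 1, and the other 5 were detected on none. Over all 758 microRNAs, 16.6% were detected on all 6 arrays and 26.5% on at least 1. The members gave 7 detections among 42 pairs of a member and an array (16.7%), against 21% over all microRNAs. Detected members numbered 2, 1 and 1 in arterial plasma (rats 1 to 3), against 1, 1 and 1 in venous plasma. The groups differed in rat 1 alone, so that every relabelling within rats gives a difference of the same size. The exact permutation test within rats (p = 1, two-sided) therefore could not decide on it. Of 603 member spots used, 153 (25.4%) were above the 95th percentile of the negative control spots of their array, against 27.6% of the spots of all rat microRNAs.

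**Figure D1:**
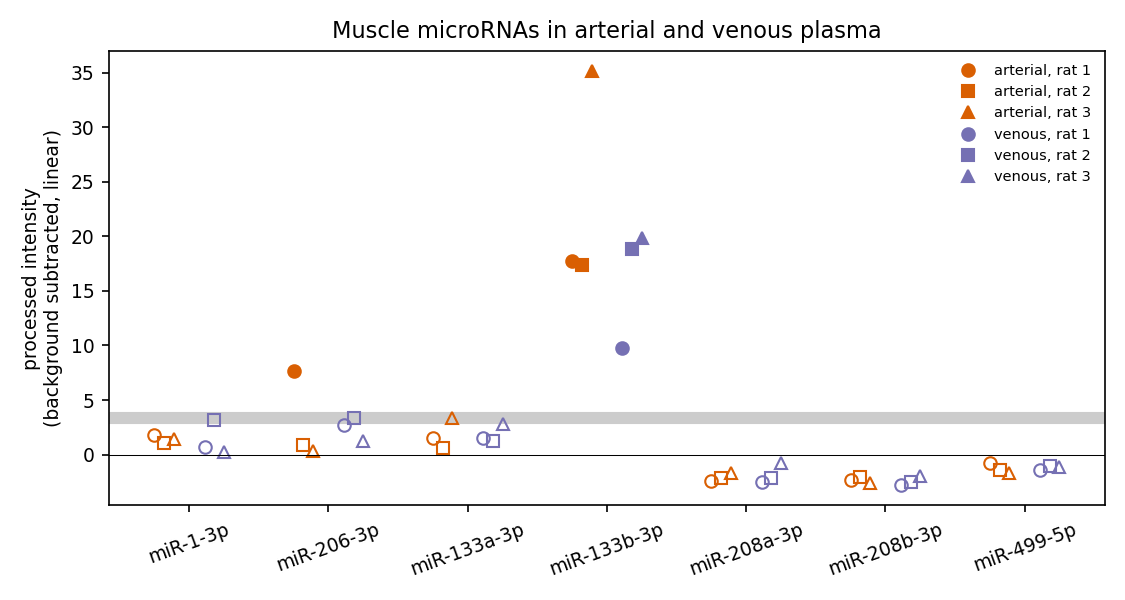
Processed intensity (Feature Extraction units, background subtracted) of the 7 muscle microRNAs on the 6 arrays, by plasma and rat. Filled markers are arrays where the microRNA was called detected, open markers those where it was not, and the grey band is the range over arrays of the 95th percentile of the negative control spots; rno-miR-133b-3p lies between 9.76 and 35.1, above the band on every array, and every other value but that of rno-miR-206-3p in arterial plasma of rat 1 lies in the band or under it.

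The plot of the members' intensities shows rno-miR-133b-3p above the whole grey band in every sample, and rno-miR-206-3p above it in the arterial plasma of rat 1 alone. Single values of the other members reached into the band, but none passed over it. The band covers the negative control percentiles of all arrays, so that a value within it can be above that of its own array. This held for rno-miR-133a-3p in the arterial plasma of rat 3 (3.31 against 2.87). In the venous plasma of rat 2 it held for rno-miR-1-3p (3.17 against 3.01) and rno-miR-206-3p (3.31 against 3.01).

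rno-miR-1-3p, known as one of the most abundant microRNAs of heart and skeletal muscle, was not detected in plasma on any array. Its processed intensity was 1.83, 1.04 and 1.42 in arterial plasma (rats 1 to 3), against 0.733, 3.17 and 0.272 in venous plasma. The groups overlapped, and the highest and the lowest values were both venous. Of its 91 spots used, 13 were above the 95th percentile of the negative controls. No fold is given, because it was detected in neither group.

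rno-miR-206-3p, the skeletal muscle member of the same seed, was detected only in the arterial plasma of rat 1. Its processed intensity was 7.70, 0.916 and 0.356 in arterial plasma (rats 1 to 3), against 2.68, 3.31 and 1.25 in venous plasma. The arterial sample of rat 1 stood above every other, while the remaining arterial samples were under all 3 venous ones, so that the groups overlapped. On that array all 16 of its spots used were above the 95th percentile of the negative controls, and they ran from 4.42 to 15.96. In the venous plasma of the same rat its spots ran from -0.58 to 6.55. With 1 array of detection, no fold between the groups is given.

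rno-miR-133a-3p, made from shared transcripts with miR-1, was not detected on any array. Its processed intensity was 1.55, 0.582 and 3.31 in arterial plasma (rats 1 to 3), against 1.52, 1.24 and 2.80 in venous plasma. In both groups rat 3 was highest, and the groups overlapped. Its spots were above the negative control percentile in 26 of 82 cases, and its probes differed. The mean of probe 1 was between -1.07 and 1.34 on the 6 arrays and that of probe 2 between 2.23 and 5.29.

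rno-miR-133b-3p, its near copy with another last base, was the member present throughout. Its processed intensity was 17.7, 17.3 and 35.1 in arterial plasma (rats 1 to 3), against 9.76, 18.9 and 19.8 in venous plasma. The arterial sample of rat 3 was highest and the venous sample of rat 1 lowest, with the rest between 17.3 and 19.8. All 80 of its spots used were above the negative control percentile, and Feature Extraction called 72 of its 96 spots well above background. Both probes carried the signal, with means of 7.70 to 23.9 for probe 1 and 11.8 to 46.3 for probe 2. The ratio of probe 2 to probe 1 stayed between 1.53 and 1.93. Cross-binding between rno-miR-133a-3p and rno-miR-133b-3p, which share all bases but the last, was not tested.

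**Figure D2:**
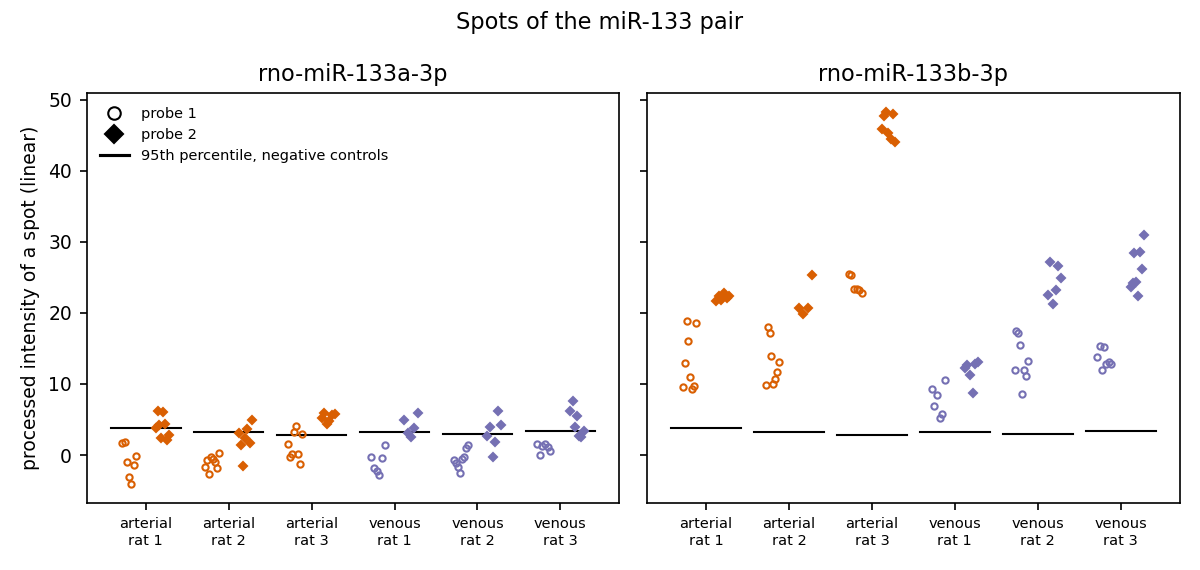
Processed intensity of the single spots of rno-miR-133a-3p and rno-miR-133b-3p on each array, by probe, with flagged spots left out. All 80 spots of rno-miR-133b-3p lie above the 95th percentile of the negative controls of their array, against 26 of 82 spots of rno-miR-133a-3p.

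The spot plot shows spots of both rno-miR-133b-3p probes above the negative control percentile on every array. In the venous plasma of rat 1, its dimmest array, Feature Extraction called 0 of 8 spots of probe 1 and 5 of 8 spots of probe 2 well above background. Spots of 1 array share a sample and are not replicates of a condition.

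The 3 members hosted by myosin genes were at background in every sample. rno-miR-208a-3p, hosted by the gene of the alpha myosin heavy chain of heart, had a processed intensity between -2.48 and -0.77, and 1 of its 82 spots passed the negative control percentile. rno-miR-208b-3p, hosted by the gene of the beta (slow) myosin heavy chain, lay between -2.76 and -1.97, with 0 of 93 spots passing. rno-miR-499-5p, hosted by Myh7b, lay between -1.66 and -0.74, with 0 of 85 spots passing. All 3 were undetected in both kinds of plasma and under the floor of 1 on every array, so that no difference could be measured. Pooled over the 5 members detected on no array, 9.24% of spots were above the negative control percentile, nearly all of them from rno-miR-133a-3p and rno-miR-1-3p, against 7.56% for the 557 microRNAs detected on no array. The median share by microRNA ran the other way, at 1.22% for these members against 4.21% for the 557. A level under this array's detection says nothing about amounts that a more sensitive assay could find.

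Arterial and venous plasma were then compared over all 758 microRNAs after quantile normalization, which gives every array the same distribution of values, with values under 1 set to 1. The test was limma with the rat as block, two-sided, at the study's unadjusted cutoff of 0.025. None of the 7 muscle microRNAs passed it, and 6 of 758 (0.792%) did. At the floor on every array, and so unable to pass, were 378 of the 758, among them the members hosted by myosin genes. At an unadjusted p under 0.05, 0 of the 7 members and 12 of 758 microRNAs (1.58%) were past the threshold, and after Benjamini-Hochberg adjustment no microRNA was. With the methods' t-test in place of limma, 0 of the 7 members and 0.528% of all microRNAs passed the cutoff.

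rno-miR-133b-3p was the only member detected in both kinds of plasma. Its normalized intensity was 12.9, 16.1 and 38.8 in arterial plasma (rats 1 to 3), against 11.9, 14.8 and 39.7 in venous plasma. Rat 3 was highest and rat 1 lowest in both kinds of plasma, and the groups overlapped almost wholly. Arterial plasma averaged 4.33 ± 0.84 on the log2 scale (SD, n = 3), against 4.26 ± 0.93 for venous plasma (SD, n = 3).

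Arterial minus venous, the log2 difference of rno-miR-133b-3p was 0.12, 0.12 and -0.035 in rats 1, 2 and 3. Arterial plasma was therefore higher in 2 of 3 rats, and by little. The mean difference was 0.067 (limma, SE 0.0484, 95% interval -0.12 to 0.26, adjusted p = 1). Exact permutation of the labels within rats gave p = 0.5 (two-sided). In a fit restricted to the 126 microRNAs with a detection call on all arrays, the SE was 0.170 and limma's adjusted p was 0.969. On the slide of rats 1 and 2 the mean was 0.12, and on that of rat 3 the value was -0.035. Without rat 3 the difference was 0.12, and limma gave rno-miR-133b-3p an unadjusted p of 0.00964 and an adjusted p of 0.914, in a fit without its arrays that called 2.24% of all 758 microRNAs at the cutoff.

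**Figure D3:**
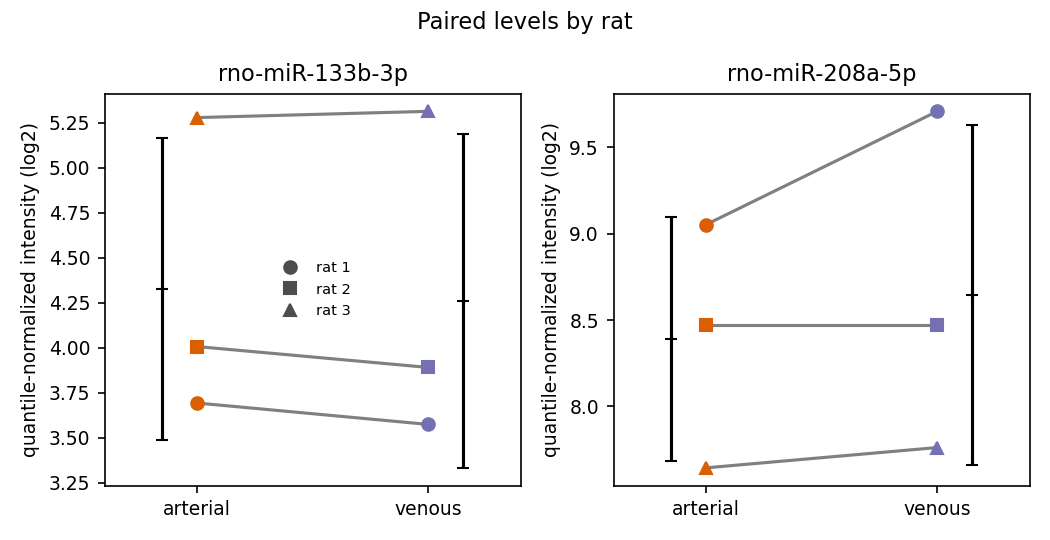
Normalized log2 intensity of rno-miR-133b-3p and of rno-miR-208a-5p in arterial and venous plasma, with a line for each rat and the group mean ± SD (n = 3) beside it. For rno-miR-133b-3p the lines of the 3 rats are nearly flat and apart from each other, with rat 3 at 5.28 and 5.31; for rno-miR-208a-5p the order of the rats is the opposite.

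The lines of the paired plot show that the rats were further apart than the vessels for rno-miR-133b-3p. The rat means of its normalized log2 intensity were 3.63, 3.95 and 5.30 for rats 1, 2 and 3. Their range of 1.66 ranked 11 among the 126 microRNAs detected on all arrays, whose median range was 0.71. The mean absolute difference between arterial and venous plasma of a rat was 0.090, the third lowest among the 126, against a median of 0.32. No arterial and venous sample of 1 rat differed by more than 0.12, while arterial plasma of 1 rat and venous plasma of another differed by 0.20 to 1.70. These ranks are descriptions of 3 rats, and no test was made of them. Both samples of a rat were on the same slide. Rat 3 was on another slide than rats 1 and 2, so that its distance from them cannot be told apart from that of the slides.

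Before normalization the log2 ratio of arterial over venous intensity of rno-miR-133b-3p was 0.86, -0.12 and 0.82 in rats 1, 2 and 3. The medians over the 126 microRNAs detected on all arrays were 0.63, -0.29 and 0.84 in the same rats. The brightness of rno-miR-133b-3p thus moved with that of the whole array, and little of its difference remained after scaling. The 3 microRNAs whose normalized log2 values were most like it over the 6 arrays were rno-miR-494-3p (Pearson r = 0.928), rno-miR-466b-3p (0.891) and rno-miR-324-3p (0.885). These values share arrays and rats, and are given as a description. Among the 126, 39 had their highest rat mean in rat 3.

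In the authors' own normalized table rno-miR-1-3p stood at 38.19, 39.75 and 44.415 in arterial plasma (rats 1 to 3), against 39.08, 40.73 and 45.045 in venous plasma. Arterial plasma was lower in all 3 rats, by 0.89, 0.98 and 0.63 units, while the rats differed by several units and the groups overlapped. On log2 of this table the difference was -0.030 with an SE of 0.00465, which the methods' t-test placed past the cutoff (p = 0.0239, adjusted p = 0.875; the smallest exact p of 3 pairs is 0.25). That test called 14 of 758 microRNAs (1.85%), and rno-miR-1-3p was the 1 member among them. With limma on the same values 1.58% of the microRNAs and 0 of the 7 members were past the cutoff.

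Within each array, the order of the 1806 probes was that of the unsubtracted median brightness of the spot listed first for a probe (Spearman correlation 1 on all 6 arrays). For rno-miR-1-3p those raw first spots averaged 38.5, 40 and 41.5 in arterial plasma and 40, 40.5 and 42.5 in venous plasma. Over all spots the raw brightness averaged 41.84, 43.44 and 40.53 in arterial plasma (rats 1 to 3) and 42.66, 44.62 and 41.19 in venous plasma, so that arterial plasma was lower in all 3 rats there too. The local background around these spots was also lower in arterial plasma in all 3 rats, at 27.59, 30.28 and 25.03 against 29.19, 30.41 and 27.125, and its part in the table's difference was not tested. In the processed intensity, which has the background subtracted, rno-miR-1-3p was lower in arterial plasma in rat 2 and higher in rats 1 and 3.

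All 7 members were lower in arterial plasma in the authors' table by the mean log2 difference, with a median of -0.031. Over all 758 microRNAs it held for 66.1%, and for 70.9% of the 557 detected on no array, whose median was -0.026. For rno-miR-133b-3p the table gave a log2 difference of -0.017, the opposite sign of the 0.067 above. The values of rno-miR-133b-3p in that table were 53.67, 53.21 and 84.73 in arterial and 52.625, 52.17 and 91.23 in venous plasma of rats 1, 2 and 3, so that arterial plasma was higher in rats 1 and 2.

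**Figure D4:**
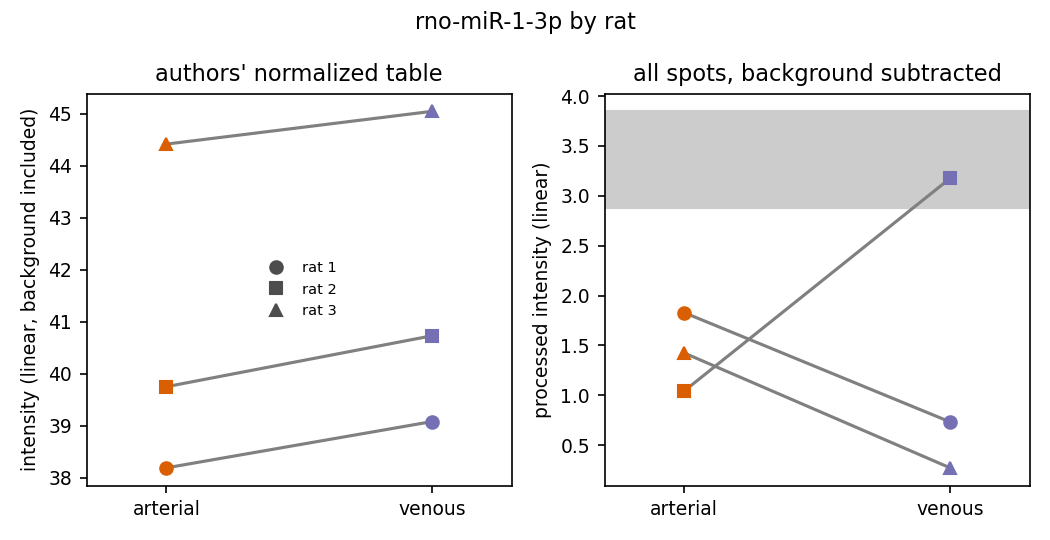
rno-miR-1-3p in the authors' table (quantile-normalized intensity, linear) and as processed intensity over all spots, with a line for each rat from arterial to venous plasma. In the table all 3 lines rise by 0.63 to 0.98 units, and in the processed intensity the line of rat 2 rises and those of rats 1 and 3 fall.

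The plot of rno-miR-1-3p shows both sources on their own scales, which cannot be compared in height. The direction was the same for the 3 rats in the table, as in the raw brightness over all spots, and it was not in the processed intensity of this undetected microRNA.

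Each hairpin also yields an opposite arm, usually the minor product, and all 7 opposite arms are on the array. Of these, rno-miR-208a-5p was detected on all 6 arrays and the other 6 on none. This arm is shown with its hairpin, since its partner rno-miR-208a-3p was at background in the same samples. The mature arm has its seed in capitals, and in the hairpin the bases of both arms are in capitals.
rno-miR-208a-5p: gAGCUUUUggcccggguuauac
Mir208a hairpin: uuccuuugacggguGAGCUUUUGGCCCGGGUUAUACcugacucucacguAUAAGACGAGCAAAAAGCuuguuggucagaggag

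The processed intensity of rno-miR-208a-5p was 842, 438 and 161 in arterial plasma (rats 1 to 3), against 399, 463 and 105 in venous plasma. Rat 3 was lowest in both kinds of plasma, and the groups overlapped. All 92 of its spots used were above the negative control percentile, and all 96 of its spots were well above background. Its probes were unequal, with a ratio of probe 2 to probe 1 of 0.306 to 0.515. The longest run of bases that it shares with another of the 685 array microRNAs matched in RefSeq was 8 bases, with rno-miR-3560, which was itself detected on all 6 arrays. Whether the probes of rno-miR-208a-5p bound another RNA was not tested.

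On the normalized log2 scale rno-miR-208a-5p was at 9.05, 8.47 and 7.64 in arterial plasma (rats 1 to 3), against 9.71, 8.47 and 7.76 in venous plasma. The rats stood in the reverse order of rno-miR-133b-3p, with rat 1 highest and rat 3 lowest. The difference between arterial and venous plasma was -0.26 (limma, SE 0.192, 95% interval -1.02 to 0.50, adjusted p = 1), with -0.66, 0 and -0.12 in rats 1, 2 and 3. Its sign depended on the scaling, and was positive at 0.11 and 0.12 when arrays were scaled to their 75th percentile (over detected or over all microRNAs) and at 0.54 with no scaling. Without rat 1 it was -0.059 and without rat 2 it was -0.39.

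**Figure D5:**
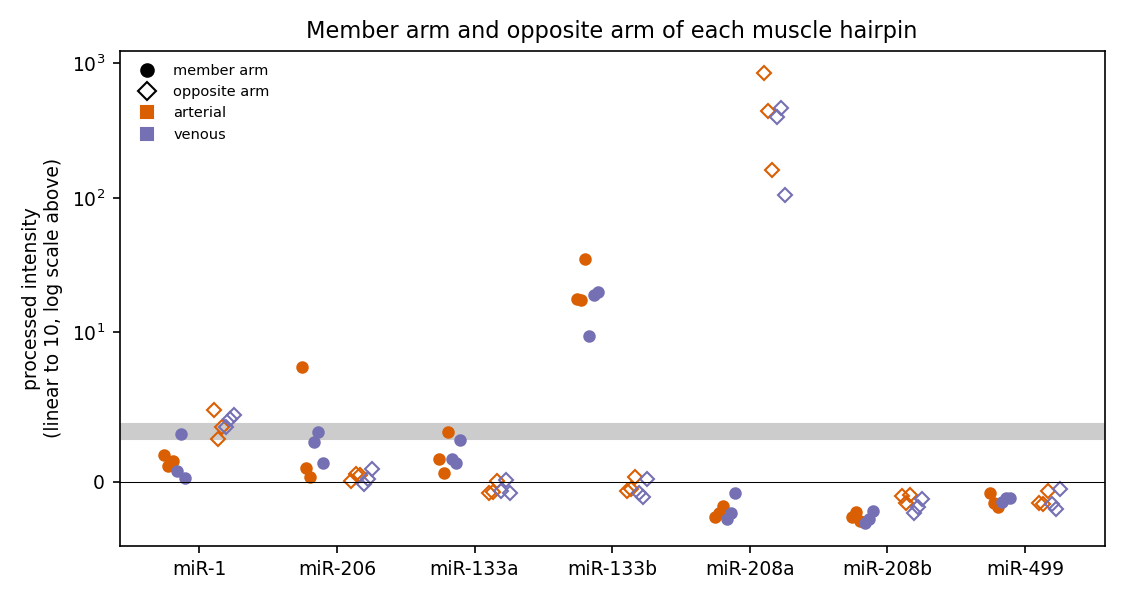
Processed intensity of the 7 muscle microRNAs and of the opposite arm of each hairpin on the 6 arrays. rno-miR-208a-5p lies between 105 and 842 on every array while rno-miR-208a-3p lies under 0, and rno-miR-133b-3p is the reverse, detected with an undetected opposite arm.

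The plot of both arms shows which arm of each hairpin gave signal, and since each arm has its own probes no ratio between arms is given. rno-miR-1-5p was at 4.80, 2.88 and 3.69 in arterial plasma (rats 1 to 3), against 3.64, 4.18 and 4.47 in venous plasma. Of its spots, 57 of 95 were above the negative control percentile, but it had no detection call. After normalization rno-miR-1-5p was above the floor on every array and lower in arterial plasma in all 3 rats. In the processed intensity it was lower there in rats 2 and 3 and higher in rat 1. Its log2 difference after normalization was -0.518 (limma, SE 0.135, unadjusted p = 0.0527), which did not pass the cutoff, and no microRNA passed after adjustment. The processed intensity of rno-miR-206-5p was between -0.13 and 0.833, and this arm was undetected. In the authors' table the log2 difference of rno-miR-206-5p was -0.045 (p = 0.0263 by the methods' t-test, adjusted p = 0.875, with 0.25 the smallest exact p of 3 pairs). Both tests on that table were run here on log2 values, and the scale that entered the study's own test is not given in the sources used here. The remaining 4 arms lay between -2.11 and 0.304, under the 95th percentile of the negative controls.

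Among other names of these families on the array, rno-miR-1b and rno-miR-133c were looked at after the values were seen. rno-miR-1b shares the seed of rno-miR-1-3p and was undetected, between -1.11 and 4.34. rno-miR-133c was undetected too, between 0.134 and 6.50. Its 21 bases all equal the reverse complement of rno-miR-133a-3p, so that it comes from the opposite strand and is not another copy of miR-133.

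MicroRNAs that muscle shares with other tissues were examined beside the members. Of 10 such microRNAs listed by name, among them rno-miR-486, rno-miR-22-3p, rno-miR-26a-5p and rno-miR-143-3p, 9 are on the array and all 9 were detected on all 6 arrays, against 1 of 7 members. None of the 9 passed the cutoff in limma, with 5 higher and 4 lower in arterial plasma. Their median log2 difference was 0.0072, beside -0.0040 over the 126 microRNAs detected on all 6 arrays. Markers of the cells that release microRNAs into plasma were present as well. Of the erythrocyte, platelet and leukocyte, and liver markers listed, 3 of 4, 5 of 5 and 2 of 3 were detected on all arrays, and 0 passed the cutoff, beside 16.6% detected and 0.792% past the cutoff over all 758 microRNAs.

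Their summed normalized levels overlapped between the groups. The sums ran from 1648 to 1842 in arterial and 1307 to 1911 in venous plasma for erythrocytes, from 513 to 965 and 673 to 915 for platelets and leukocytes, and from 73.3 to 585 and 93.2 to 267 for liver. The platelet and leukocyte sum was highest in rat 3 in both kinds of plasma, as rno-miR-133b-3p was, at 965 and 915. The erythrocyte sum (1804 and 1307) and the liver sum (197 and 161) of rat 3 were not the highest in either kind of plasma. The part of any of these cells in the level of rno-miR-133b-3p was not tested.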

How the data were processed

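Plasma samples, 3 arterial and 3 venous, were measured on single-colour Agilent arrays (12128 spots of rat microRNAs, 1806 probes, 758 microRNAs). The authors deposited, per the file headers, Feature Extraction intensities of every spot, background subtracted and not normalized between arrays; the submitters' processing notes give version 11.0.1.1 and the headers 10.7.3.1. They also deposited a table of probe intensities that the authors quantile normalized in GeneSpring.

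For the values given here, outlier-flagged spots (8.72 to 10.4%) and controls were dropped, spots and then probes were averaged, and arrays were quantile normalized over the 758 microRNAs. Anything lower than a floor of 1 became 1 before log2. limma 3.58.1 in R 4.3.3 (lmFit, eBayes, rat as block, two-sided) was used at an unadjusted p of 0.025, the methods' cutoff, and, after Benjamini-Hochberg adjustment, of 0.05. limma replaced the methods' paired t-test, which was kept as an alternative. With many microRNAs constant at the floor, limma's prior had 0.198 degrees of freedom. Precision is limited by the number of arrays. The fit was tested on simulated data. Exact permutations, correlations and figures used Python 3.11.15, scipy 1.17.1 and matplotlib 3.10.9.

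Pairing follows the replicate numbers of the labels, which were taken as rat numbers. Deviations from the group means, over the 126 microRNAs detected on all arrays, correlated at 0.799, 0.686 and 0.635 between the samples of rats 1, 2 and 3.

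The named microRNAs are all 7 members, their opposite arms, the 3 most like a member detected on all arrays, and the marker lists; names outside this rule were chosen after their values were seen. Members and lists were chosen with earlier results of these data known. Alternatives changed the scaling between arrays, the intensity used, the probe summary, flagged spots, the floor, the filter, the test, the block and the rats. Applying the methods' t-test to the authors' table was added after seeing the data. Sequences are from RefSeq (GRCr8), which matched 685 of the 758 names.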

Additional observations from a re-analysis of the deposited data

How the results depend on the processing

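The count of microRNAs past the cutoff in limma was 6 (4 higher in arterial plasma, 66.7%). It was 12 on the authors' table, 13 with normexp (offset 50) on the median spot intensity, 11 with the median of the probes, 13 with a floor of 0.1, 2 with a floor of 10, 3 over the 126 microRNAs detected on all arrays, and 14 when the methods' t-test was applied to the authors' table, and 17 to 33 when 1 rat was left out. The split between higher and lower in arterial plasma was 4 to 5 and 2 to 2 with scaling to the 75th percentile (over detected or over all microRNAs) and 4 to 1 with no scaling, which moved the median difference of the 126 microRNAs to 0.40. It was 10 to 3 with a floor of 0.1, 0 to 2 with a floor of 10, 6 to 0 over microRNAs detected on at least 1 array and 3 to 0 over those detected on all. After adjustment 1 microRNA passed over those detected on at least 1 array (rno-miR-883-5p) and 1 (rno-miR-125b-5p) by the methods' t-test applied to the table of the authors, and 0 under the other alternatives. Of the muscle members, 1 passed the cutoff with that t-test (rno-miR-1-3p) and 1 without rat 3 (rno-miR-133b-3p), and 0 elsewhere (0 to 1 when 1 rat was left out). The cause was not tested. The log2 difference of rno-miR-133b-3p reversed to -0.017 on the authors' table with both tests, was 0.041 to 0.12 when 1 rat was left out and 0.52 with no scaling, 0.22 with the total gene signal, 0.018 with flagged spots kept and 0.0055 with that normexp setting. Under the remaining alternatives it was 0.067 to 0.10. Without the replicate block (no pairing by rat) it was 0.067 with an SE of 0.705, and 5 microRNAs passed. The difference of rno-miR-208a-5p reversed to 0.11, 0.12 and 0.54 under the 3 scalings named above, and was -0.39 to -0.059 when 1 rat was left out. Members detected ranged over 11.9 to 17.9% of member and array pairs, and member spots above the negative controls over 20.7 to 28.9%.

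With 3 rats, 5 of 7 members were detected on no array and 1 on 1 array. rno-miR-133b-3p was the only member detected in both kinds of plasma. With all rats its log2 difference of 0.067 (limma, SE 0.0484) did not pass the cutoff, and on the authors' table its sign was reversed (-0.017).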
